A study of Homo sapiens with 9 samples.

Results

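The transcripts described here encode the subunits of oxidative phosphorylation, the 4 respiratory complexes and the ATP synthase (complex V) of the inner mitochondrial membrane. Members were chosen by name among the protein-coding genes of the count table: the subunits encoded by mitochondrial DNA, and the nuclear NDUF, SDH, UQCR, CYC1, COX4 to COX8 and ATP5 genes. Of 102 genes with such a name, 95 reached at least 10 counts in 3 or more libraries, out of 37351 genes in the table. These 95 members comprised 13 mitochondrially encoded and 82 nuclear genes, and all 95 were among the 19250 genes tested. The rule used names and a count minimum only, not a difference between times, although it was set with earlier results of these data known.

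LNCaP cells, a human prostate carcinoma line grown from a metastasis, were starved in medium without serum and calcium and received 15 ng/mL of recombinant NRG1, the neuregulin that binds the receptor tyrosine kinase HER3. RNA was collected at 0, 12 and 24 h, with 3 biological replicates at each time, and libraries made with the TruSeq mRNA kit, which selects poly(A) RNA, held 47016302 to 60985825 counts each. All 3 groups came from 1 cell line and shared the starvation. Cells kept for 12 or 24 h without NRG1 were not analysed here, so the effect of NRG1 and that of time in the starvation medium cannot be told apart, and both comparisons with 0 h used the same 3 control libraries. The labelled cell type was checked by its markers. The luminal marker KLK3 (prostate-specific antigen) stood at 994 ± 20.1 CPM at 0 h (a count scaled to the size of its library, TMM-normalised; SD, n = 3), whereas the basal marker KRT5, the endothelial marker PECAM1 and the leukocyte marker PTPRC stayed at or below 0.0927 CPM in every library. COL1A1 and VWF, used as fibroblast and endothelial markers, were detected at 24.6 and 13.1 CPM at 0 h, although COL1A2 was at or below 0.0192 CPM. VWF fell to 8.82 CPM at 12 h and 7.39 CPM at 24 h (log2 fold changes -0.58 and -0.83, edgeR adjusted p = 6.8e-07 and 3.1e-10). The fibroblast marker LUM rose from 1.03 to 1.52 CPM at 24 h (log2 fold change 0.56, edgeR adjusted p = 0.048), a call lost when any 1 library was left out. Of 9 luminal markers, 7 were called at 12 h (3 higher, 4 lower) and 8 at 24 h (2 higher, 6 lower). The part of these changes in the results on the subunits was not tested. ETV4, a transcription factor gene induced by ERK signalling, stood at 0.258, 0.0345 and 0.188 CPM at 0 h and at 14.8, 14.9 and 14.1 CPM at 12 h.

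Complex I takes electrons from NADH and complex II from succinate, complex III passes them to cytochrome c, and complex IV hands them to oxygen. Complexes I, III and IV pump protons while they do so, and the ATP synthase lets the protons flow back to make ATP. Every complex except complex II is a mosaic of subunits made inside the mitochondrion from its own DNA and of subunits made in the cytosol from nuclear genes and imported, so the 2 genomes have to be expressed together.

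The 2 genomes contributed unequally to the RNA. The 13 mitochondrially encoded members held 3.49, 3.72 and 4.07% of all counts in the 0 h libraries, 3.62, 3.67 and 3.72% at 12 h and 3.61, 3.50 and 3.27% at 24 h. The lowest and the highest 0 h library enclosed all 3 of the 12 h values, and only 24 h replicate 3 lay below every 0 h library. The share of the 82 nuclear members together was 1.10% ± 0.00733 before treatment, 1.13% ± 0.0179 after 12 h and 1.10% ± 0.0130 after 24 h (SD, n = 3 each). The 12 h libraries, at 1.12 to 1.15%, were all above those at 0 h, which spanned 1.09 to 1.10%. Mitochondrially encoded counts thus exceeded the nuclear ones by a factor of 3.43 ± 0.245 before treatment, 3.23 ± 0.0486 after 12 h and 3.15 ± 0.121 after 24 h (SD, n = 3 each). In bulk RNA, fewer cells with a transcript and less of it per cell cannot be told apart, and a share also moves with the amount of all other RNA.

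**Figure D1:**
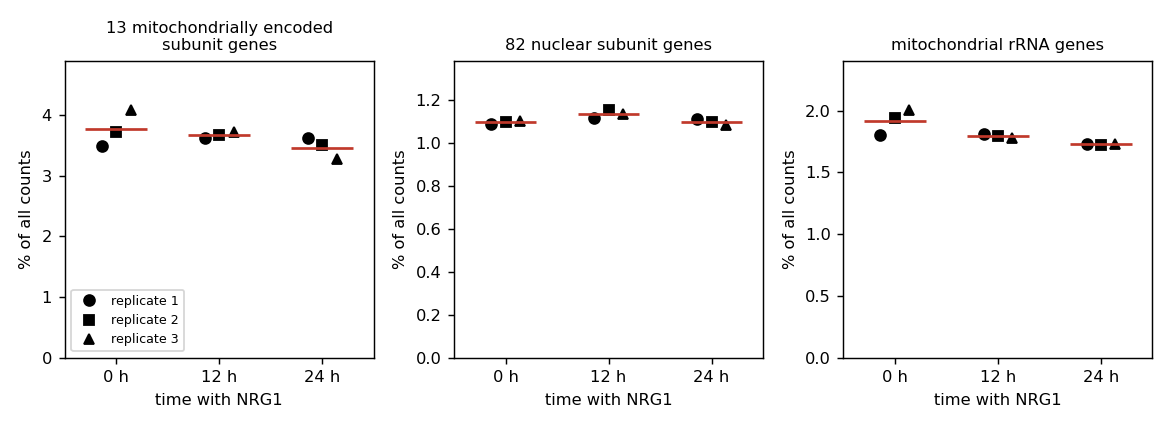
Share of all counts (%, vertical axis from 0) taken by the 13 mitochondrially encoded subunit genes, the 82 nuclear subunit genes and the mitochondrial rRNA genes, by time with NRG1 (horizontal axis). Points are libraries, with symbols for the replicate number, and red lines are group means. The mitochondrially encoded share spread most at 0 h, from 3.49 to 4.07%, and the nuclear share was highest at 12 h.

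Levels at 0 h were also taken per kilobase of canonical transcript, a scale that depends on the annotated form. The mitochondrially encoded members had a median of 3031 CPM per kb and the nuclear members one of 98.9. Some canonical transcripts are long, such as those of NDUFS1 (11660 bases), UQCRB (8459) and ATP5MC3 (2587). Which forms LNCaP cells use was not tested, so ranks by CPM per kb are uncertain for such genes. MT-CO1, the catalytic subunit of complex IV, was the most abundant at 7021 CPM per kb, and it made up 27.7 to 30.8% of the counts of the 13 genes in every library. MT-ND6, the only subunit read from the light strand, was the least abundant of the 13 at 1230 CPM per kb. Even so it stood above the most abundant nuclear member, ATP5F1B (the catalytic beta subunit of the ATP synthase), at 707 CPM per kb. MT-ND6 starts at base 14149, on the strand opposite to its neighbour MT-ND5, which ends at base 14148. The strand setting of the counting is not given, so the level of MT-ND6 is uncertain. Whether poly(A) selection recovered MT-ND6 as well as the other genes was not tested. Each complex held a wide range. Among the nuclear subunits of complex I, NDUFB4 reached 671 CPM per kb and NDUFA7 0.759, and the median of the 36 was 76.3. Complex II ran from 4.42 (SDHA) to 106 CPM per kb (SDHC), complex III from 20.0 (UQCR11) to 538 (UQCRH), complex IV from 0.805 (COX7B2) to 524 (COX7C) and the ATP synthase from 29.7 (ATP5MG) to 707.

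**Figure D2:**
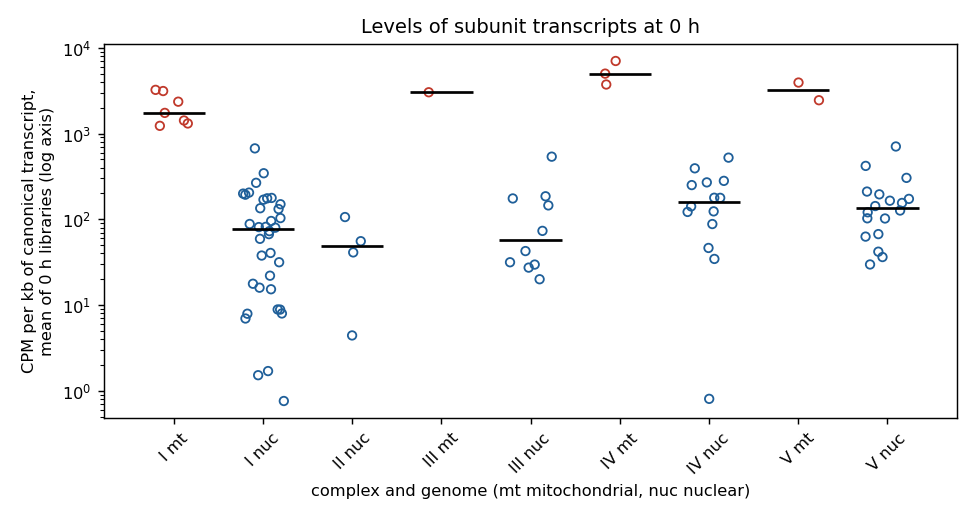
Level of each subunit transcript at 0 h in CPM per kb of canonical transcript (vertical axis, log scale, mean of 3 libraries) by complex and genome (horizontal axis). Each circle is a gene, red for mitochondrially encoded and blue for nuclear, and black lines are medians. All 13 mitochondrially encoded genes lie at 1230 CPM per kb or above, and all 82 nuclear genes at 707 or below.

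Some low values concern genes whose reads could be divided. The obligatory core subunits NDUFV2 (complex I) and SDHA (complex II, the flavoprotein that oxidises succinate) had only 1.45 ± 0.172 and 11.9 ± 0.860 CPM at 0 h (SD, n = 3 each). NDUFV2 shares 694 bases at 98.1% identity with the pseudogene NDUFV2P1, whose counts came to 615% of those of NDUFV2. SDHA shares stretches of 95.6% identity with SDHAP4 and 96.7% with SDHAP3, whose counts came to 73.8 and 60.6% of those of SDHA. A longer stretch of 1457 bases, or 54.1% of the SDHA transcript, is shared at 95.3% identity with MUC20-OT1. The counts of MUC20-OT1 came to 105% of those of SDHA. NDUFA7, NDUFB8 and NDUFA13 overlap RPS28, HIF1AN and YJEFN3. A near-identical copy over at least 25% of the transcript was found for 24 of 82 nuclear members, and 16 shared exon bases with a neighbour that was counted at more than 10% of their level. The levels of these genes are uncertain, since the handling of reads with several matches and of strand is not given in the sources used here.

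Of the tissue-specific isoforms of COX4, COX6B, COX7A and COX8, LNCaP cells used the common forms. COX4I1 stood at 393 CPM per kb at 0 h, COX6B1 at 281, COX7A2 at 269, COX8A at 178 and COX6A1 at 122 (means, n = 3). In CPM these were 300 ± 10.5, 137 ± 10.5, 124 ± 6.84, 87.9 ± 3.40 and 65.4 ± 1.48 (SD, n = 3 each). The counterparts COX4I2 (lung), COX6B2 and COX8C (testis) and COX7A1 (heart and skeletal muscle) did not reach the count minimum and were at or below 0.246 CPM in every library. ATP5MGL and the readthrough genes ATP5MF-PTCD1 and NDUFC2-KCTD14 also fell short, at or below 0.0960 CPM. NDUFA4L2, a paralogue of the complex IV subunit NDUFA4 known to be induced by hypoxia, reached 178 CPM per kb at 0 h beside 88.0 for NDUFA4. It measured 168 ± 4.80, 164 ± 10.9 and 165 ± 10.5 CPM at 0, 12 and 24 h against 179 ± 7.11, 182 ± 6.31 and 174 ± 4.75 for NDUFA4 (SD, n = 3 each). NDUFA4L2 shares 33 exon bases with SHMT2 on the opposite strand, a gene counted at 535% of its level, so its own level is uncertain. The 3 genes for the c subunit of the rotor, ATP5MC1, ATP5MC2 and ATP5MC3, encode the same mature protein. Their levels at 0 h were 127, 420 and 67.2 CPM per kb, or 81.7 ± 1.17, 265 ± 8.42 and 174 ± 3.72 CPM (SD, n = 3 each).

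At 12 h, few subunit transcripts moved, and those that did mostly rose. edgeR's quasi-likelihood test called 13 of 95 members at an adjusted p of at most 0.05, against 18.7% of all tested genes. Among the 82 nuclear members 12 were called, 11 higher and 1 lower, where 10.6% of all genes were higher and 8.16% lower. The median log2 fold change was 0.03 over the nuclear members, -0.03 over the 13 mitochondrially encoded ones and -0.01 over all 19250 genes. All changes were small, with nuclear fold changes between 0.797 and 1.395, where 2.37% of all genes passed with a fold change of at least 1.5. Groups did not overlap for 21 of 82 nuclear members, against 32.8% of all genes. Leaving out 12 h replicate 1 moved the nuclear median to 0.063. The nuclear calls of UQCRQ, ATP5F1A, ATP5F1D and ATP5MC3 all ended without 0 h replicate 1, and likewise without 12 h replicate 2. Calls among all genes fell from 3605 to 3148 and 2745 in these fits.

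At 24 h the calls were divided between directions. edgeR called 15 of 95 members, against 21.1% of all genes. Of 82 nuclear members 5 were higher and 5 lower, where 11.6% of all genes were higher and 9.48% lower. All 5 mitochondrially encoded members that were called were lower. Nuclear fold changes lay between 0.808 and 1.33, where 3.31% of all genes passed with a fold change of at least 1.5. The median log2 fold change was -0.02 over the nuclear members and -0.13 over the mitochondrially encoded ones. The latter was -0.19 without 0 h replicate 1, -0.057 without 0 h replicate 3 and -0.078 without 24 h replicate 3. The nuclear median was -0.026 without 0 h replicate 1, -0.0081 without 24 h replicate 3 and 0.0018 without 0 h replicate 3, where its sign turned. Groups did not overlap for 20 of 82 nuclear members and 3 of 13 mitochondrially encoded ones, against 33.5% of all genes. The number of nuclear calls fell from 10 to 4 without 0 h replicate 3. Calls among all genes fell from 4065 to 3297 in the same fit.

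**Figure D3:**
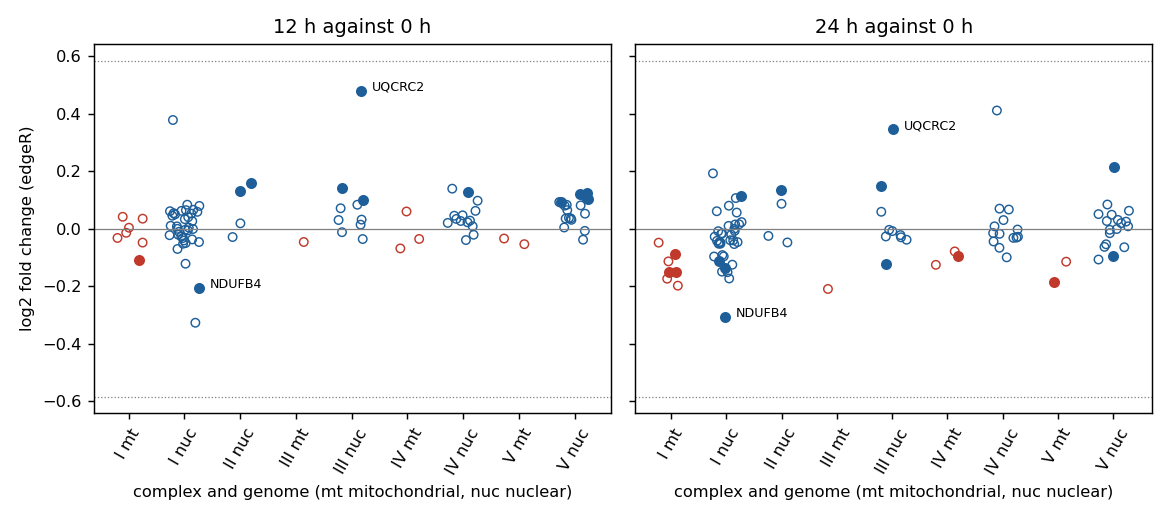
Log2 fold change fitted by edgeR (vertical axis) for each subunit gene at 12 h and at 24 h against the same 0 h libraries, by complex and genome (horizontal axis; red mitochondrially encoded, blue nuclear). Filled points have an adjusted p of at most 0.05, open points do not, and dotted lines mark a fold change of 1.5. UQCRC2 is the highest and NDUFB4 the lowest filled point at both times, and all 13 mitochondrially encoded genes lie below 0 at 24 h.

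A pair of members stood out by size. UQCRC2 encodes core protein 2 of complex III, which belongs to the same family as the processing peptidase that trims imported proteins. It stood at 356, 352 and 358 CPM at 0 h, at 479, 507 and 500 at 12 h and at 459, 454 and 442 at 24 h. The 3 times did not overlap, and the 12 h libraries were the highest. UQCRC2 rose by a log2 fold change of 0.48 at 12 h (SE 0.0311, edgeR adjusted p = 1.9e-14) and of 0.35 at 24 h (SE 0.0311, edgeR adjusted p = 5.7e-11). NDUFB4, an accessory subunit in the membrane arm of complex I, stood at 435, 454 and 421 CPM at 0 h, at 381, 376 and 380 at 12 h and at 360, 352 and 347 at 24 h. Each time lay below the one before without overlap. NDUFB4 fell by 0.21 on the log2 scale at 12 h (SE 0.0317, edgeR adjusted p = 7.4e-06) and by 0.31 at 24 h (SE 0.0318, edgeR adjusted p = 1.6e-09). Both genes passed at both times under each of the 17 alternatives tried, although neither reached a fold change of 1.5.

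The promoters of these 2 genes are shown because nuclear subunit genes are known to share binding sites of a few factors, foremost NRF1 and the ETS family factor GABP. The stretches run from 250 bases before the RefSeq start to 50 bases after it (GRCh38.p14, plus strand), at chr16:21953111-21953410 for UQCRC2 and chr3:120596086-120596385 for NDUFB4. Capitals mark matches, on either strand, to GCGC, any base and TGCGC in a row (NRF1), CCGGAAGT (ETS), AAGATGGCG (YY1) or TGACGTCA (CREB).
UQCRC2: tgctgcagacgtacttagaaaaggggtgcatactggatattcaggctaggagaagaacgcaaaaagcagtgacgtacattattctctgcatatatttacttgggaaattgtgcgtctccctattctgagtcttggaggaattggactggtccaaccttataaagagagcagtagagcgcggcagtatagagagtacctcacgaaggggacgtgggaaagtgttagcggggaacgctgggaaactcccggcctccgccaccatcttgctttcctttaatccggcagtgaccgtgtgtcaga
NDUFB4: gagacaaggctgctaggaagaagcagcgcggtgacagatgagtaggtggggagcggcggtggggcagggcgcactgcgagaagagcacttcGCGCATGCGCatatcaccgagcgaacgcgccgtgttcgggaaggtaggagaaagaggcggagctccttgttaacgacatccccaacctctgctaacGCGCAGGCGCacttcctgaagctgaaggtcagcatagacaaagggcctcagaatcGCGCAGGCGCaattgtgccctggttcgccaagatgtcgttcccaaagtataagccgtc
NDUFB4 held 3 matches, all to the NRF1 motif, starting at bases -159, -63 and -8 counted from the start site, and the UQCRC2 stretch held none. A RefSeq promoter was found for 66 of 82 nuclear members. The NRF1 motif was present in 24.2% of these, against 6.28% of all 27305 promoters in the table, and the ETS motif in 15.2% against 4.44%. The YY1 motif was in 12.1% against 1.85%, and the CREB motif in 7.58% against 1.98%. Of the 9 members with a promoter that were called higher at 12 or 24 h, 3 held the NRF1 motif, as did 12 of the 54 not called against 0 h. These matches describe letters in a window and do not show that a factor was bound.

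Complex I, the NADH dehydrogenase, is the largest of the set. Of its 36 nuclear members, NDUFB4 was called at 12 h, and 4 were called at 24 h (1 higher, 3 lower), or 2.78 and 11.1%, where 18.7 and 21.1% of all genes were called. The median log2 fold change was 0.00 at 12 h and -0.04 at 24 h. NDUFS6, a zinc-binding accessory subunit, stood at 95.1, 89.0 and 88.8 CPM at 0 h, at 88.2, 93.3 and 90.7 at 12 h and at 101, 96.4 and 98.5 at 24 h. Its 24 h libraries lay above all the others, and it rose at 24 h by a log2 fold change of 0.11 (SE 0.0366, edgeR adjusted p = 0.021). NDUFB9 fell by 0.14 on the log2 scale at 24 h (SE 0.0419, edgeR adjusted p = 0.019). Its groups overlapped, with 124, 140 and 138 CPM at 0 h and 127, 123 and 115 at 24 h. NDUFB9 shares 187 exon bases with TATDN1 on the opposite strand, a gene counted at 29.4% of its level, so its own level is uncertain. NDUFA6 fell by 0.11 (SE 0.0390, edgeR adjusted p = 0.037), from 72.3, 72.7 and 70.9 CPM to 66.5, 65.6 and 67.7, without overlap. NDUFB9 and NDUFA6 are both accessory subunits of the LYR motif family. Dropping either 0 h replicate 2 or 3, or else 24 h replicate 1 for NDUFS6 and 24 h replicate 3 for NDUFB9, ended these calls (edgeR adjusted p 0.086 to 0.10 and 0.11 to 0.13). That of NDUFA6 was lost without any 0 h replicate, 12 h replicate 3, 24 h replicate 1 or 24 h replicate 2 (edgeR adjusted p 0.052 to 0.14).

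Complex II, which also serves as succinate dehydrogenase of the tricarboxylic acid cycle, has 4 nuclear members, and 2 were called at 12 h, both higher, and 1 at 24 h, against 18.7 and 21.1% of all genes. SDHB, the iron-sulfur subunit, stood at 54.7, 57.6 and 56.9 CPM at 0 h, at 64.2, 63.1 and 61.3 at 12 h and at 61.7, 58.6 and 59.4 at 24 h. It rose at 12 h by a log2 fold change of 0.16 (SE 0.0391, edgeR adjusted p = 0.0032) and kept the call under all 17 alternatives. SDHD, a membrane anchor, stood at 56.0, 56.6 and 52.4 CPM at 0 h, at 63.1, 58.1 and 59.7 at 12 h and at 59.3, 62.5 and 59.4 at 24 h. Both later groups lay above 0 h without overlap. SDHD rose by 0.13 at 12 h (SE 0.0417, edgeR adjusted p = 0.022) and by 0.14 at 24 h (SE 0.0418, edgeR adjusted p = 0.017) on the log2 scale. It lost the 12 h call without 0 h replicate 3 or 12 h replicate 1 (edgeR adjusted p 0.14 and 0.16). The 24 h call was lost without 0 h replicate 3 or 24 h replicate 2 (edgeR adjusted p 0.12 and 0.11). The other anchor, SDHC, measured 139 ± 4.85, 141 ± 7.19 and 137 ± 4.46 CPM at 0, 12 and 24 h (SD, n = 3 each).

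In complex III, which oxidises coenzyme Q, 3 of 10 nuclear members were called at each time against 0 h, beside 18.7% of all genes at 12 h and 21.1% at 24 h. The 10 include the retrocopy UQCRHL, whose transcript matches UQCRH at 98.6% identity over its whole length. UQCRH was counted at 3559% of the level of UQCRHL, so reads cannot be assigned between them with certainty. Besides UQCRC2, the Rieske iron-sulfur protein UQCRFS1 rose at 12 h, from 127, 131 and 137 CPM to 145, 144 and 146, without overlap (log2 fold change 0.14, SE 0.0343, edgeR adjusted p = 0.0025). UQCRQ, a small accessory subunit, stood at 115, 115 and 116 CPM at 0 h, at 119, 126 and 126 at 12 h and at 113, 115 and 111 at 24 h. It rose at 12 h by a log2 fold change of 0.10 (SE 0.0339, edgeR adjusted p = 0.038), a call lost without any 0 h replicate or without 12 h replicate 2 or 3 (edgeR adjusted p 0.052 to 0.13). At 24 h CYC1, the cytochrome c1 subunit, rose from 203, 215 and 207 CPM to 234, 230 and 229 (log2 fold change 0.15, SE 0.0331, edgeR adjusted p = 0.00091). The CYC1 groups did not overlap. UQCRB, which binds coenzyme Q, stood at 230, 225 and 238 CPM at 0 h, at 223, 240 and 237 at 12 h and at 210, 214 and 213 at 24 h. Its 24 h libraries lay below all the others, and it fell at 24 h by 0.12 on the log2 scale (SE 0.0332, edgeR adjusted p = 0.0062), with an adjusted p of 0.068 without 0 h replicate 3. Within this complex, members thus moved in opposite directions at 24 h.

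Complex IV, cytochrome c oxidase, reduces oxygen to water. Of its 14 nuclear members COX5A was the one called at 12 h, or 7.14% against 18.7% of all genes, and the median log2 fold change was 0.03 at 12 h and -0.02 at 24 h. COX5A stood at 143, 148 and 144 CPM at 0 h, at 157, 159 and 159 at 12 h and at 155, 151 and 151 at 24 h. The 3 times did not overlap, and the 12 h rise had a log2 fold change of 0.13 (SE 0.0321, edgeR adjusted p = 0.0035). COX7A2L, which joins complexes III and IV in supercomplexes, measured 106 ± 0.510, 106 ± 4.84 and 111 ± 1.02 CPM at 0, 12 and 24 h (SD, n = 3 each).

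In the ATP synthase, the calls at 12 h fell mostly on the catalytic F1 part, of whose 5 subunit genes 4 were called, all higher. Of all 18 nuclear members, 5 were called at 12 h and 2 at 24 h, or 27.8 and 11.1% against 18.7 and 21.1% of all genes. The median log2 fold change of the 5 was 0.11, beside 0.07 for the whole complex. ATP5F1B (beta) stood at 1197, 1252 and 1279 CPM at 0 h, at 1331, 1366 and 1334 at 12 h and at 1255, 1266 and 1198 at 24 h. ATP5F1C, the gamma subunit that forms the central stalk, stood at 180, 179 and 186 CPM at 0 h, at 199, 197 and 198 at 12 h and at 186, 177 and 175 at 24 h. Both had 12 h libraries above all 6 others, and overlapping groups at 0 and 24 h. At 12 h ATP5F1B rose by 0.11 (SE 0.0316, edgeR adjusted p = 0.0094) and ATP5F1C by 0.13 (SE 0.0324, edgeR adjusted p = 0.0046) on the log2 scale. ATP5F1A (alpha) rose by 0.10 (SE 0.0332, edgeR adjusted p = 0.023), and the rotor gene ATP5MC3 by 0.09 (SE 0.0319, edgeR adjusted p = 0.035).

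ATP5F1D, the delta subunit of the central stalk, had its highest level at 24 h, with 198, 222 and 209 CPM at 0 h, 224, 235 and 225 at 12 h and 241, 249 and 240 at 24 h. The 3 times did not overlap, with the nearest libraries of 0 and 12 h at 222 and 224 CPM. ATP5F1D rose by 0.12 at 12 h (SE 0.0355, edgeR adjusted p = 0.013) and by 0.22 at 24 h (SE 0.0354, edgeR adjusted p = 1.4e-05) on the log2 scale. ATP5IF1, the inhibitor that blocks ATP hydrolysis by the enzyme, fell at 24 h from 153, 150 and 156 CPM to 148, 140 and 142 (log2 fold change -0.09, SE 0.0337, edgeR adjusted p = 0.043). Leaving out single libraries ended the 12 h call of ATP5F1D (without 0 h replicate 1 or 12 h replicate 2, edgeR adjusted p 0.089 and 0.077). It likewise ended that of ATP5F1A (without 0 h replicate 1 or 12 h replicate 2 or 3, edgeR adjusted p 0.067 to 0.11). It also ended those of ATP5MC3 at 12 h (without 0 h replicate 1 or 3 or 12 h replicate 1 or 2, 0.076 to 0.093) and ATP5IF1 at 24 h (all but 0 h replicate 2 and 24 h replicate 1, 0.055 to 0.2).

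**Figure D4:**
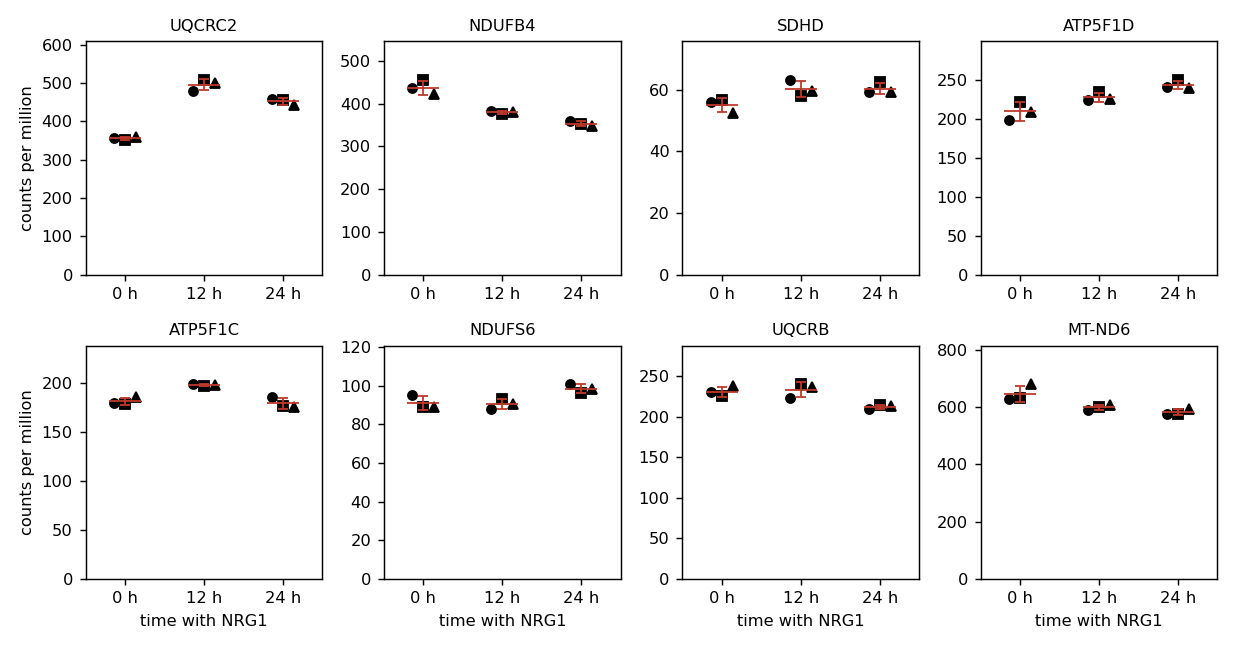
CPM (vertical axes from 0) of 8 subunit genes in each library by time with NRG1 (horizontal axes). Points are libraries, with circles, squares and triangles for replicates 1, 2 and 3, and red bars are mean ± SD (n = 3). UQCRC2 is highest at 12 h, NDUFB4 is highest at 0 h, ATP5F1D is highest at 24 h, and MT-ND6 is lower at 12 and 24 h than at 0 h.

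The mitochondrially encoded members behaved as a block within libraries. Their level in 0 h replicate 3 was above the 0 h mean for 13 of 13 genes, with a median log2 difference of 0.15. In 0 h replicate 1 it was below that mean for 13 of 13, with a median of -0.12. In 24 h replicate 3, 12 of 13 were below the 24 h mean, with a median of -0.12. The nuclear members deviated far less in these libraries, with medians of 0.03, -0.02 and -0.02. The median SD within groups was 0.113 on the log2 scale over the 13 genes and 0.0487 over the 82 nuclear ones. It was 0.152 at 0 h, 0.0264 at 12 h and 0.107 at 24 h for the mitochondrially encoded members. The 13 genes come from 1 genome that is transcribed as long polycistronic RNAs, so they are not independent of one another.

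**Figure D5:**
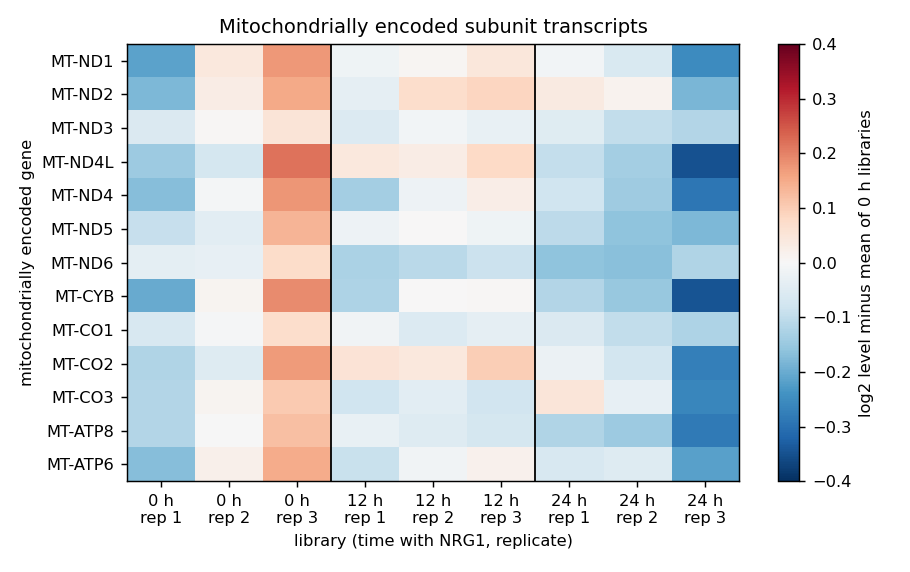
Log2 level of each mitochondrially encoded subunit transcript (rows) in each library (columns, by time with NRG1 and replicate), minus the mean of the 0 h libraries. Red is higher and blue lower, and black lines separate the times. Columns differ as a whole: 0 h replicate 3 is red and 0 h replicate 1 blue throughout, and 24 h replicate 3 is the bluest for most genes.

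At 12 h MT-ND6 was the 1 of 13 mitochondrially encoded members that edgeR called, and at 24 h 5 were called, all lower. MT-ND6 stood at 628, 630 and 679 CPM at 0 h, at 591, 599 and 608 at 12 h and at 577, 575 and 594 at 24 h. Its 0 h libraries lay above all 6 later ones. MT-ND6 fell by 0.11 on the log2 scale at 12 h (SE 0.0323, edgeR adjusted p = 0.016) and by 0.15 at 24 h (SE 0.0323, edgeR adjusted p = 0.00062). The 24 h call held under each of the 16 alternatives that keep these genes. None of these alternatives changes the poly(A) selection or the strand setting, so they do not address those limits. The 12 h call ended when 0 h replicate 3 or either of 12 h replicates 1 and 2 was dropped (edgeR adjusted p 0.059 to 0.19). Without any 1 of these libraries the count of mitochondrially encoded calls at 12 h was 0 under edgeR.

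MT-ND5, a proton-pumping subunit of complex I, stood at 2406, 2493 and 2819 CPM at 0 h, at 2533, 2571 and 2539 at 12 h and at 2389, 2296 and 2269 at 24 h. It fell by 0.15 on the log2 scale at 24 h (SE 0.0416, edgeR adjusted p = 0.011), without overlap with either earlier group. MT-ATP8, a membrane subunit of the ATP synthase, fell by 0.18 at 24 h (SE 0.0542, edgeR adjusted p = 0.028), from 466, 505 and 549 CPM to 465, 457 and 415, with the nearest libraries at 466 and 465 CPM. MT-CO1 fell by 0.09 (SE 0.0321, edgeR adjusted p = 0.033), from 10347, 10780 and 11351 CPM to 10397, 10110 and 9925, and MT-ND3 by 0.09 (SE 0.0322, edgeR adjusted p = 0.048), from 436, 454 and 470 CPM to 439, 424 and 418. The groups of these last genes overlapped. Their calls were the least stable of the 5: that of MT-ND3 ended in 10 of 16 alternatives, among them the fits without any 1 library other than 0 h replicate 1 and 24 h replicate 1, and that of MT-CO1 in 7 of 16, among them the fits without replicate 2 or 3 of any time (edgeR adjusted p up to 0.30 for both). The number of calls at 24 h fell from 5 to 1 without 24 h replicate 3, to 2 when 0 h replicate 2 or 3 or 24 h replicate 2 was dropped, and to 3 without any 1 of the 12 h libraries. Calls among all genes at 24 h fell from 4065 to 3503 without 24 h replicate 3. MT-ND5 lost its call without 0 h replicate 3 or 24 h replicate 2 or 3, and MT-ATP8 when 0 h replicate 2, 12 h replicate 1 or 24 h replicate 3 was dropped (edgeR adjusted p up to 0.12 and 0.11).

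Larger differences did not always pass. For MT-CYB, the cytochrome b subunit of complex III, the log2 fold change at 24 h was -0.21 (SE 0.111, edgeR adjusted p = 0.27), with 2989, 3467 and 3920 CPM at 0 h and 3170, 3093 and 2708 at 24 h. MT-ND4L had one of -0.20 (SE 0.110, edgeR adjusted p = 0.29) and MT-ND4 one of -0.17 (SE 0.101, edgeR adjusted p = 0.32). At 24 h MT-ND1, MT-CO2 and MT-CO3 also did not pass. MT-ND1 stood at 2567, 3062 and 3354 CPM at 0 h and at 2953, 2851 and 2498 at 24 h, MT-CO2 at 2343, 2452 and 2866 and at 2502, 2416 and 2103, and MT-CO3 at 3609, 3946 and 4207 and at 4044, 3826 and 3265, with overlapping groups in each case. The SDs of the mitochondrially encoded genes within groups ran from 0.0398 to 0.140 on the log2 scale. At 24 h all 13 log2 fold changes against 0 h were negative, between -0.21 (MT-CYB) and -0.05 (MT-ND2), and at 12 h 9 of 13 were. Since these genes shift together in single libraries, the 13 signs do not count as 13 observations. The sign of the 12 h median turned without 0 h replicate 3, to 0.048.

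Some of these genes share bases, shown here because a read that reaches into the overlap touches both. The reading frames of MT-ATP8 and MT-ATP6 overlap by 46 bases (chrM:8527-8572, GRCh38, heavy-strand genes shown on the plus strand of the reference) and those of MT-ND4L and MT-ND4 by 7 bases (chrM:10760-10766). Capitals mark the overlap, with 15 bases on each side.
MT-ATP8 and MT-ATP6: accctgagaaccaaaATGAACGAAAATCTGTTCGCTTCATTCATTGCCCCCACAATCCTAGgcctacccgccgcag
MT-ND4L and MT-ND4: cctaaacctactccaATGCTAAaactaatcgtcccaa
The overlap covers 22.2% of MT-ATP8 and 6.76% of MT-ATP6. A read that touches both genes could not be assigned to 1 of them. MT-ATP8 has 207 bases in all, so this can concern more of its reads than the share of bases in the overlap. The level of MT-ATP8 and its fall at 24 h are uncertain in that respect. MT-ATP8 and MT-ATP6 are made from a shared bicistronic transcript, and their log2 fold changes at 24 h were -0.18 and -0.11. Nuclear copies of mitochondrial DNA also took reads. MTATP6P1, a pseudogene on chromosome 1 with 98.5% identity over the 681 bases of MT-ATP6, was counted at 9.03% of the level of MT-ATP6. All such pseudogenes together were counted at 0.680 to 0.780% of the mitochondrially encoded members.

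The ribosomal RNAs of the mitochondrion come from the same genome. MT-RNR1 (12S) stood at 1689, 1797 and 1794 CPM at 0 h, at 1559, 1533 and 1481 at 12 h and at 1443, 1442 and 1504 at 24 h, with all later libraries below 0 h. It fell by 0.21 on the log2 scale at 12 h (SE 0.0320, edgeR adjusted p = 7e-06) and by 0.27 at 24 h (SE 0.0320, edgeR adjusted p = 4.4e-08). MT-RNR2 (16S) fell by 0.14 at 24 h (SE 0.0346, edgeR adjusted p = 0.0028), and its adjusted p was 0.063 without 0 h replicate 3. Of 21 tested mitochondrial rRNA and tRNA genes, 2 were called at 12 h and 5 at 24 h, all lower, or 9.52 and 23.8% of the list against 18.7 and 21.1% of all genes. The 24 h count was 2 without 0 h replicate 3 or 24 h replicate 2 and 3 without 0 h replicate 1 or 2. Poly(A) selection is not designed to recover rRNA and tRNA, so these counts are a minor part of those RNAs.

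Between 12 and 24 h edgeR called 9 of 82 nuclear members, 1 higher and 8 lower, against 6.08% of all genes (3.03% higher, 3.05% lower). The median log2 fold change over the nuclear members was -0.05 and 63 of 82 were negative, beside a median of 0.00 over all genes. The nuclear median was -0.032 without 12 h replicate 2. Groups did not overlap for 29 of 82 nuclear members, against 24.4% of all genes. The count of 9 was 1 without 12 h replicate 2, 2 without 12 h replicate 3, 3 without 24 h replicate 3 and 5 without 24 h replicate 1 or 2. Calls among all genes fell too, from 1171 to 685, 806 and 757 without 12 h replicate 2, 12 h replicate 3 and 24 h replicate 3. ATP5F1C fell by 0.14 on the log2 scale (SE 0.0325, edgeR adjusted p = 0.0049), from 199, 197 and 198 CPM to 186, 177 and 175, and kept its call under all 17 alternatives. UQCRC2 fell by 0.13 from 12 to 24 h (SE 0.0310, edgeR adjusted p = 0.0055), with an adjusted p of 0.065 without 12 h replicate 2, and all its 24 h libraries lay above those of 0 h. The other falls were those of UQCRB by 0.14 (SE 0.0333, edgeR adjusted p = 0.0084), UQCRQ by 0.13 (SE 0.0341, 0.020), ATP5F1B by 0.12 (SE 0.0317, 0.020) and NDUFB4 by 0.10 (SE 0.0318, 0.045) on the log2 scale. NDUFS6 was the member called higher, by 0.12 (SE 0.0368, edgeR adjusted p = 0.048). Each of these calls was lost without some library: UQCRB and UQCRQ without 12 h replicate 2 or 3 or 24 h replicate 1, UQCRQ and ATP5F1B without 24 h replicate 3, ATP5F1B without 12 h replicate 2 or 3, NDUFB4 without any library of either time, and NDUFS6 also without 0 h replicate 3. Their adjusted p then lay between 0.051 and 0.22.

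ATP5PF, coupling factor 6 of the peripheral stalk, stood at 51.0, 55.8 and 55.2 CPM at 0 h, at 56.8, 57.9 and 58.1 at 12 h and at 53.1, 51.2 and 50.7 at 24 h. Its 12 h libraries were the highest, and it fell by 0.16 on the log2 scale from 12 to 24 h (SE 0.0414, edgeR adjusted p = 0.016), a call lost without 12 h replicate 2 or 3 or 24 h replicate 2 or 3 (0.061 to 0.076). ATP5PF shares 692 exon bases with GABPA on the opposite strand, a gene counted at 67.7% of its level, so its reads cannot be assigned with certainty. ATP5MJ, a small membrane subunit, fell by 0.15 (SE 0.0448, edgeR adjusted p = 0.048), with overlapping groups of 71.6, 79.7 and 77.2 CPM at 12 h and 71.9, 67.3 and 67.5 at 24 h. That call was lost without the same 4 libraries (0.15 to 0.27), with DESeq2 and without a scaling factor. Of the 13 mitochondrially encoded members edgeR called 0 between 12 and 24 h, DESeq2 called 1 and 2 had an unadjusted p under 0.05. The edgeR count was 2 without 0 h replicate 1 and 3 without 0 h replicate 3. Their log2 fold changes ran from -0.24 to -0.01, with a median of -0.12 (-0.058 without 24 h replicate 3), and groups did not overlap for 5 of 13.

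Across the 3 comparisons 37 calls were made on members, of which 13 were kept under every alternative other than the fold threshold of 1.5, which no called member reached: 7 of 13 at 12 h, 5 of 15 at 24 h and 1 of 9 between 12 and 24 h. The 7 were UQCRC2, SDHB, UQCRFS1, COX5A, ATP5F1B, ATP5F1C and NDUFB4, and the 5 were UQCRC2, ATP5F1D, CYC1, NDUFB4 and MT-ND6.

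Other genes of the mitochondrion are given by list, as counts beside the 18.7% of all genes called at 12 h and 21.1% at 24 h. Without 1 library, calls among all genes fell from 3605 to as low as 2745 at 12 h. At 24 h they fell from 4065 to as low as 3297. The median SE at 12 h was 0.0835 over all tested genes. It was 0.0431 over the mitochondrial ribosomal proteins, 0.0440 over the mitochondrial RNA list and 0.0365 over the tricarboxylic acid cycle list. Changes of equal size are called more readily in such lists, which limits the comparison of shares. This also holds for the nuclear members, with a median SE of 0.0385. Of 77 tested mitochondrial ribosomal proteins, which make up the ribosome that translates the 13 mitochondrial mRNAs, 29 were called at 12 h (27 higher, 2 lower) and 21 at 24 h (18 higher, 3 lower). Their median log2 fold changes were 0.09 and 0.05. MRPL50 rose by 0.27 at 12 h (SE 0.0443, edgeR adjusted p = 2.2e-05), whereas MRPL18 fell by 0.27 at 24 h (SE 0.0384, edgeR adjusted p = 1.3e-06). The count at 12 h was 19 without 12 h replicate 1, and that at 24 h was 13 without 0 h replicate 3 and 11 without 24 h replicate 1.

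Of 26 genes of mitochondrial transcription and RNA handling, 14 were called at 12 h (13 higher) and 11 at 24 h (10 higher). REXO2, an oligoribonuclease that clears short RNA fragments from mitochondria, had the largest rise of the list, from 67.7, 70.2 and 63.6 CPM at 0 h to 90.9, 95.2 and 88.1 at 12 h and 105, 108 and 108 at 24 h. The 3 times did not overlap. REXO2 rose by 0.45 at 12 h (SE 0.0389, edgeR adjusted p = 5.2e-11) and by 0.67 at 24 h (SE 0.0387, edgeR adjusted p = 4.3e-16) on the log2 scale. The mitochondrial poly(A) polymerase MTPAP rose by 0.28 at 12 h (SE 0.0477, edgeR adjusted p = 3.3e-05), the exoribonuclease PNPT1 by 0.23 (SE 0.0399, edgeR adjusted p = 3.7e-05) and LRPPRC, which stabilises mitochondrial mRNAs, by 0.15 (SE 0.0316, edgeR adjusted p = 0.00067). The polymerase POLRMT and its partner TFAM did not pass, with TFAM means of 109, 112 and 111 CPM and POLRMT means of 68.3, 67.4 and 69.3 CPM at 0, 12 and 24 h. TWNK, the helicase of mitochondrial DNA replication, rose by 0.36 at 12 h (SE 0.0477, edgeR adjusted p = 5.2e-07), and 4 of 13 genes of mitochondrial DNA maintenance were called at 12 h, all higher (1 without 12 h replicate 2).

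Of 15 regulators of mitochondrial biogenesis, 7 were called at 12 h (5 higher) and 7 at 24 h (6 higher). MYC rose by 0.53 at 12 h (SE 0.0315, edgeR adjusted p = 1.6e-15), from 291, 304 and 292 CPM to 425, 426 and 431. PPRC1, a member of the PGC-1 coactivator family that responds to serum, rose by 0.44 (SE 0.0429, edgeR adjusted p = 7.4e-10). PPARGC1A, the PGC-1alpha coactivator, was near the limit of detection, at 1.05, 0.932 and 1.18 CPM at 0 h and 0.618, 0.625 and 0.518 at 24 h, and fell by 0.84 on the log2 scale at 24 h (SE 0.262, edgeR adjusted p = 0.018). That call was lost without 0 h replicate 3 or 24 h replicate 3 (edgeR adjusted p 0.081 and 0.072). The transcription factor NRF1 fell by 0.28 at 12 h (SE 0.0556, edgeR adjusted p = 0.00029), from 28.8, 31.3 and 33.5 CPM to 27.7, 24.3 and 25.1, and stood at 30.4, 29.1 and 28.9 CPM at 24 h. The count of regulators fell to 4 without 12 h replicate 1 or 2 at 12 h and without 24 h replicate 3 at 24 h.

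Of 25 genes of the tricarboxylic acid cycle and pyruvate dehydrogenase, 11 were called at 12 h (10 higher) and 8 at 24 h (5 higher). Citrate synthase (CS) rose by 0.16 at 12 h (SE 0.0347, edgeR adjusted p = 0.00081) and IDH3A by 0.26 (SE 0.0449, edgeR adjusted p = 4.4e-05). MPC2, a subunit of the mitochondrial pyruvate carrier, fell by 0.41 at 24 h (SE 0.0345, edgeR adjusted p = 1.1e-11). The count at 24 h was 4 without 0 h replicate 2 or 24 h replicate 2, and 5 without 24 h replicate 1. Of 16 genes of cytochrome c and coenzyme Q, 5 were called at 12 h (4 higher) and 6 at 24 h (3 higher, 3 lower). Cytochrome c itself, CYCS, rose by 0.13 at 12 h (SE 0.0328, edgeR adjusted p = 0.0037) and by 0.15 at 24 h (SE 0.0328, edgeR adjusted p = 0.00063). Of 13 carriers and channels, 5 were called at 12 h, all higher, among them VDAC1 of the outer membrane by 0.25 (SE 0.0340, edgeR adjusted p = 1.1e-06) and the ADP/ATP translocase SLC25A5 by 0.17 (SE 0.0312, edgeR adjusted p = 7.4e-05). Of 34 import and proteostasis genes, 9 were called at 12 h, all higher, including the chaperone cofactor GRPEL1 by 0.29 (SE 0.0384, edgeR adjusted p = 6.1e-07). Without 12 h replicate 2 these counts were 3 carriers and 5 import genes, and at 24 h 2 carriers and 7 import genes were called, all higher (1 carrier without 24 h replicate 1).

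Assembly factors help the subunits fold, acquire cofactors and join. At 12 h 2 of 18 factors of complex I, 2 of 10 of complexes II and III and 2 of 25 of complex IV were called, all higher. At 24 h the counts were 2 (1 higher, 1 lower), 4 and 2 (all higher), and 1 of 6 factors of the ATP synthase was higher. These small counts moved with single libraries, those at 12 h for complex I to 0 without 0 h replicate 3 or 12 h replicate 2 or 3, and those at 24 h for complexes II and III to 1 without 0 h replicate 3 or 24 h replicate 1 or 2. COA7, a complex IV assembly factor, rose by 0.26 at 12 h (SE 0.0386, edgeR adjusted p = 3e-06) and by 0.25 at 24 h (SE 0.0386, edgeR adjusted p = 5.4e-06). BCS1L, which inserts the Rieske protein UQCRFS1 into complex III, rose by 0.18 at 12 h (SE 0.0478, edgeR adjusted p = 0.0048), beside the rise of UQCRFS1 itself at that time.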

How the data were processed

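RNA from LNCaP cells was sequenced at 0, 12 and 24 h with NRG1 (3 libraries each, grouped by the labels). The deposited values are raw counts per gene; per the submitters' processing notes and the study's methods, the authors trimmed reads with Cutadapt, checked them with FastQC 0.11.9, aligned them to GRCh38.p13 with STAR and counted them with featureCounts on a GENCODE annotation. Strand and multimapping settings are not given in the sources used here. The study's methods state that 1 LNCaP time 0 replicate was left out for quality without naming the treatment. Its captions give n = 3 for the RNA-seq of NRG1-treated LNCaP cells, and a lower minimum for that with asporin, another protein it studied. All 3 of the 0 h libraries were used here. The table's 14 unnamed columns were empty and not used.

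Totals were 47016302 to 60985825 counts a library. Genes passing filterByExpr (19250) were scaled by TMM and fitted with edgeR 4.0.16 (R 4.3.3), robust quasi-likelihood, with all 9 libraries, no covariate and Benjamini-Hochberg adjustment over all 19250 genes. A gene was called at an adjusted p of at most 0.05, and the fold threshold of 1.5 was applied as an alternative. The SE given is derived, as the absolute log2 fold change divided by the square root of the quasi-likelihood F statistic. Replicates are labelled biological and were plated as triplicate wells, so p-values measure the spread between these libraries, which may be technical. CPM divided counts by the summed counts of the tested genes times the TMM factor of the library, whereas shares of counts used library totals. CPM per kb used the canonical transcript length of GENCODE 44 (GRCh38). Promoters came from RefSeq, and near-identical copies (95% identity or more, 150 bases or more) were found with blastn 2.17.0. The fit was tested on simulated data. Alternatives were other scaling, DESeq2 1.42.0, other filters, a fit on the 6 libraries of a comparison alone, a block for the replicate number, leaving out the mitochondrially encoded genes and leaving out each library.

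The members, lists and rules were chosen with earlier results of these data known. Named were all mitochondrially encoded members, in each comparison the 5 largest rises and 5 largest falls among called nuclear members, the tissue isoforms, the most and least abundant member of each complex, members under the count minimum, and from each other list up to 3 rises and 3 falls plus PPARGC1A, NRF1, TFAM, POLRMT, LRPPRC, ATP5IF1, CYCS and CS. ATP5F1A, UQCRQ, NDUFV2, NDUFB8, NDUFA13 and MT-RNR2, and the markers KRT5, PECAM1, PTPRC, COL1A1 and COL1A2, were named after their values were seen. The 5 genes of the ligand response list, ETV4 among them, were called higher at both times.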

Additional observations from a re-analysis of the deposited data

Results flagged for a closer look

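The 24 h effect differed from the 12 h effect, by the test of 24 h against 12 h in the edgeR fit, for 9 nuclear members. The log2 fold change from 12 to 24 h was -0.16 for ATP5PF, -0.15 for ATP5MJ, -0.14 for ATP5F1C, -0.14 for UQCRB, -0.13 for UQCRC2, -0.13 for UQCRQ, -0.12 for ATP5F1B and -0.10 for NDUFB4. It was 0.12 for NDUFS6, the 1 member that was higher at 24 h than at 12 h. UQCRC2, UQCRQ, ATP5F1B and ATP5F1C had been called higher at 12 h against 0 h, and NDUFB4 lower.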

How the results depend on the processing

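Of 37 calls on members, 13 were kept under the 17 alternatives other than the fold threshold (16 for mitochondrially encoded genes), and 2 ended under most of them: MT-ND3 (10 of 16) and ATP5IF1 (9 of 17), both at 24 h. Beside left-out libraries, calls ended without a scaling factor (ATP5MC3 and UQCRQ at 12 h, ATP5MJ and NDUFB4 from 12 to 24 h), with DESeq2 (NDUFA6 at 24 h, ATP5MJ), with all genes with a count (ATP5MC3, UQCRQ, ATP5IF1, MT-ND3, and NDUFS6 from 12 to 24 h), with the 6 libraries compared (ATP5IF1, MT-ND3, MT-CO1 and MT-ATP8 at 24 h) and with the replicate block (MT-ND3 and MT-ATP8). With the fold threshold of 1.5, edgeR called 0 members in each comparison, since no called member reached that fold. Leaving out 1 library moved the count of mitochondrially encoded calls from 1 to between 0 and 1 at 12 h, from 5 to between 1 and 6 at 24 h, and from 0 to between 0 and 3 from 12 to 24 h. It moved the nuclear counts from 10 to between 4 and 10 at 24 h and from 9 to between 1 and 10 from 12 to 24 h. Calls among all genes also moved, from 3605 to between 2745 and 3700 at 12 h and from 4065 to between 3297 and 4020 at 24 h. From 12 to 24 h they moved from 1171 to between 685 and 1449. How much of each loss came with the smaller number of libraries was not tested. At 12 h, leaving out either 0 h replicate 1 or 12 h replicate 2 ended the nuclear calls of UQCRQ, ATP5F1A, ATP5F1D and ATP5MC3. The median log2 fold change at 12 h ranged from -0.092 to 0.048 for the mitochondrially encoded members, turning without 0 h replicate 3, and from 0.021 to 0.063 for the nuclear ones. Mitochondrially encoded calls at 24 h were 3 with the replicate block and 2 with the 6 libraries compared, and from 12 to 24 h they were 1 with DESeq2 and 2 with all genes with a count or with the 6 libraries compared. The replicate numbers did not pair the samples (r of deviations -0.04 to 0.03 for equal numbers, -0.06 to 0.05 for others), and the replicate block left the nuclear counts at 12, 10 and 9.

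Directions turned for single mitochondrially encoded genes, in comparisons in which they were not called. Their log2 fold change at 12 h, over the fits without 1 library each, ranged from -0.092 to 0.096 for MT-ND1, -0.046 to 0.12 for MT-ND2, -0.13 to 0.048 for MT-ND4, -0.026 to 0.16 for MT-ND4L, -0.056 to 0.059 for MT-ND5, -0.14 to 0.056 for MT-CYB, -0.063 to 0.0026 for MT-CO1, -0.11 to 0.047 for MT-ATP6 and -0.11 to 0.011 for MT-ATP8. At 24 h it ranged from -0.13 to 0.035 for MT-ND2 and from -0.14 to 0.0058 for MT-CO3, and from 12 to 24 h from -0.076 to 0.074 for MT-CO3. Without a scaling factor it was -0.0056 for MT-ND1 at 12 h and 0.00081 for MT-CO3 from 12 to 24 h, and with at least 10 counts in every library -0.0015 for MT-ND1 at 12 h. The causes were not tested. Of the tests on single genes under alternatives, 1956 kept direction and call, 145 lost the call, 11 gained it and 19 turned. With 3 libraries a time, differences of the mitochondrially encoded genes near their spread between libraries were not detectable.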
